A study of Mus musculus with 4 samples.

Results

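B16F1 is an established mouse melanoma line, and 10 of its genes that encode enzymes of pyrimidine and deoxynucleotide synthesis are described here: *Cad*, *Dhodh*, *Umps*, *Ctps*, *Uck2*, *Rrm1*, *Rrm2*, *Dut*, *Tk1* and *Dctpp1*. They were chosen by symbol for their role in the pathway, with earlier results of these data known, out of 39179 genes listed in each file. All 10 were expressed highly enough to be tested. RNA-seq counts were compared between 2 libraries of parental B16F1 control cells, grown on rigid culture dishes, and 2 libraries of tumor repopulating cells (TRCs), which are the B16F1 cells that formed spheroids in soft 3D fibrin gels of 90 Pa stiffness and were isolated on day 5. Both groups come from the same cell line, and the labels name no transgene or drug for either. The gel, growth as a spheroid and the selection of cells that form one all differ between the groups, and their parts cannot be told apart. The sources used here do not say whether the 2 libraries of a group came from separate cultures, so p-values measure the spread between these libraries, which may be technical.

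Pyrimidine nucleotides are made from glutamine, bicarbonate and aspartate. CAD carries out the first steps, and DHODH in the inner mitochondrial membrane oxidizes dihydroorotate to orotate. UMPS joins orotate to phosphoribosyl pyrophosphate (PRPP) and releases UMP. Once UMP is phosphorylated to UTP, CTP synthase makes CTP from UTP, while uridine-cytidine kinases such as UCK2 return salvaged nucleosides to the same pool. Ribonucleotide reductase, built of the large subunit RRM1 and a small subunit, RRM2 in dividing cells or RRM2B outside S phase and after DNA damage, turns ribonucleotides into deoxynucleotides. DUT removes dUTP and yields the dUMP from which thymidylate is made, TK1 is the cytosolic thymidine kinase of dividing cells, and DCTPP1 breaks down dCTP and modified forms of it. Transcripts of *Rrm2*, *Tk1* and *Tyms* are known to be highest in S phase, and *Cad* is a known target of MYC.

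The bases just before the transcription start of *Cad*, *Umps* and *Ctps*, the 3 genes whose fall was called under every setting tried, and of *Rrm1* and *Rrm2*, which encode the subunits that form one enzyme, are shown because these genes are the ones the results below turn on. The sequences are those of RefSeq on GRCm38.p6, each 120 bases long, read 5′ to 3′ on the strand of the gene and ending at the base before the RefSeq start, which for *Rrm2* lies downstream of the gene start given below. Capitals mark each match to CCAAT or to the GC box GGGCGG, on either strand. They lie at chr5:31054660-31054779 (plus strand) for *Cad*, chr16:33967039-33967158 (minus strand) for *Umps*, chr4:120570277-120570396 (minus strand) for *Ctps*, chr7:102441575-102441694 (plus strand) for *Rrm1* and chr12:24708134-24708253 (plus strand) for *Rrm2*.
Cad: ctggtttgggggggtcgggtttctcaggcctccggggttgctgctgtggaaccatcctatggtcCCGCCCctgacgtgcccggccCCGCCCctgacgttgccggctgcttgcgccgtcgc
Umps: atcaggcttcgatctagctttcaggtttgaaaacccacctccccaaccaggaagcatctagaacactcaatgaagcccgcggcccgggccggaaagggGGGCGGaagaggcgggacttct
Ctps: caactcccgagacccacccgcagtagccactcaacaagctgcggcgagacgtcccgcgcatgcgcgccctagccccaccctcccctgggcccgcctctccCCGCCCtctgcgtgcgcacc
Rrm1: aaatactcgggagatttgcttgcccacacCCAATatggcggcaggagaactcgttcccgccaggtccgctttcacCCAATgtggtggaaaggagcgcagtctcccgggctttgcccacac
Rrm2: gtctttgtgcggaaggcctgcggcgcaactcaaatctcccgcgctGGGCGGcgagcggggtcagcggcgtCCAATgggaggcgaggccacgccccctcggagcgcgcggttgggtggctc

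In the 250 bases before the start, searched on both strands, a GC box was present in 8 of the 9 genes with a promoter in the table (88.9%), against 59.3% of the promoters of genes tested and 32.7% of all 32851 promoters. The exception was *Rrm1*, which instead had 2 CCAAT matches, with their first bases 91 and 45 bases before the start. CCAAT was present in *Rrm1*, *Rrm2* and *Dctpp1* (33.3% of the 9), against 35.3% of the promoters of genes tested and 33.8% of all promoters. The E-box CACGTG and the E2F-type words TTTGGCGC and TTTCCCGC were in none of the 9 windows, and they were found in 8.61%, 0.768% and 1.72% of the promoters of genes tested and in 6.02%, 0.417% and 0.895% of all promoters. A match is a description of letters, and the absence of one says nothing about binding of a factor.

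Each library held between 35948295 and 43511554 counts on genes, so that 3 counts, the fewest taken as detectable, correspond to at most 0.0835 counts-per-million (CPM), a limit that covers counting error only. The share of alignments that were not unique, which were assigned to no gene, was 15.2% and 17.1% in the control libraries and 18.3% and 25.2% in the TRC libraries. The melanocyte markers fixed for the check were all expressed, with summed levels of 19418 and 16224 CPM in control replicates 1 and 3 and 24519 and 27316 CPM in TRC replicates 1 and 3. Markers of leukocytes, endothelium, keratinocytes and fibroblasts summed to at most 1.95 CPM per list and library, with both keratinocyte genes at 0 counts, and *Pdgfra*, the 1 fibroblast gene tested, had a log2 fold change of 0.13 (edgeR exact test FDR = 0.915). Among the melanocyte markers *Dct*, dopachrome tautomerase, was called, at 5694 and 4334 CPM in the control libraries and 11154 and 10027 CPM in the TRC libraries (log2 fold change 1.08, edgeR exact test FDR = 0.000307), though not in the quasi-likelihood test (FDR = 0.0704). RNA was measured in bulk, so fewer cells in a given state and less RNA per cell cannot be told apart.

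All 10 enzymes had a lower mean level in TRCs than in control cells, where 49.7% of all genes tested had a log2 fold change below 0, and 5 of them, *Cad*, *Umps*, *Ctps*, *Rrm2* and *Dctpp1*, fell at a false discovery rate (FDR) under 0.05 in edgeR's exact test with Benjamini-Hochberg adjustment over all 11483 genes tested. None rose. Of all genes tested, 7.05% were called lower and 8.81% higher. Since the 10 were chosen with earlier results of these data known, the shares beside them are a description and no test of the set. For the 10 enzymes the log2 fold changes had a median of −0.73 and a range from −1.46 to −0.24, while all genes tested had a median of 0.0034. For 8 of the 10, both TRC libraries lay below both control libraries, which was true of 30.4% of all genes tested. edgeR's quasi-likelihood test also called *Cad*, *Umps* and *Ctps*, 3 of the 10, where it called 4.24% of all genes lower and 4.94% higher. In the exact test the number called was 3, namely *Cad*, *Umps* and *Ctps*, when control replicate 3, TRC replicate 1 or TRC replicate 3 was left out, and 7 when control replicate 1 was left out. The plot of the levels in each library shows that the control libraries stood further apart than the TRC libraries for most of the genes.

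**Figure D1:**
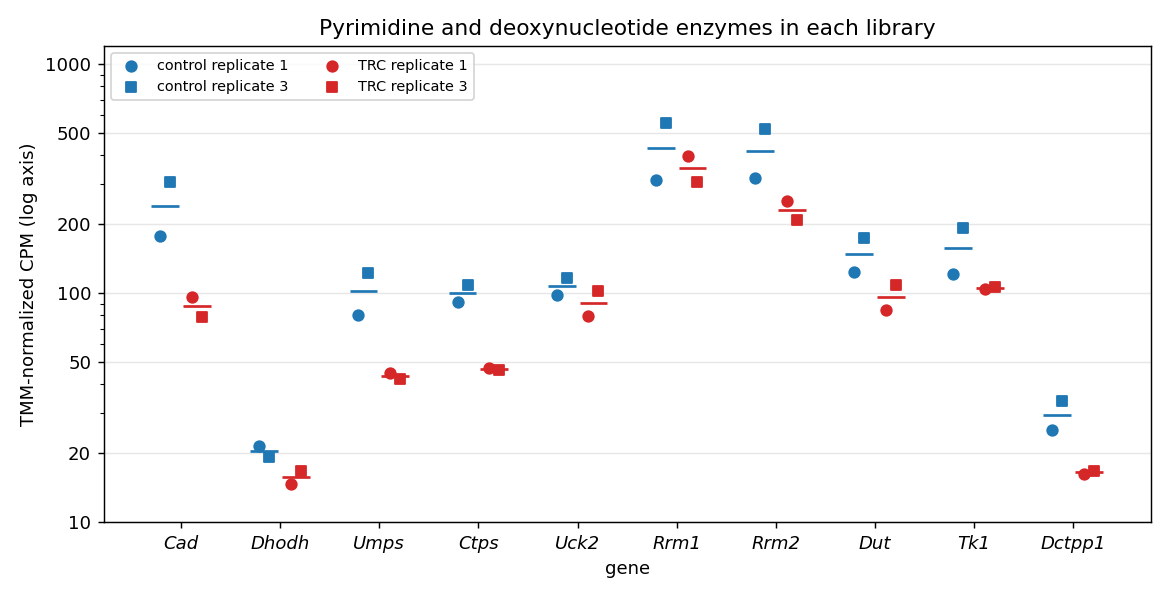
TMM-normalized CPM (log axis) of the 10 enzymes in control replicates 1 and 3 (blue circles and squares) and TRC replicates 1 and 3 (red circles and squares), with horizontal lines at the group means (n = 2). Both red points lie below both blue points for 8 genes, while for *Uck2* and *Rrm1* 1 red point lies below and the other between the blue points, and control replicate 3 is above control replicate 1 for 9 genes.

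*Cad* (ENSMUSG00000013629, GRCm38 chromosome 5 from 31054780 to 31078479, plus strand) had the largest decrease of the 10. It had 178 and 304 CPM (here and below TMM-normalized) in control replicates 1 and 3, and 96.3 and 79.1 CPM in TRC replicates 1 and 3. Both TRC libraries were below both control libraries, and the control libraries differed from each other more than the TRC libraries did. The control mean of 241 ± 88.9 CPM (SD, n = 2) compared with a TRC mean of 87.7 ± 12.2 CPM (SD, n = 2), which is 36.3% of it, a log2 fold change of −1.46 (SE 0.29 from DESeq2, edgeR exact test FDR = 1.18e-05). Omitting any 1 library gave values from −1.79 to −1.03.

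*Umps* (ENSMUSG00000022814, chromosome 16 from 33954782 to 33967038, minus strand), which completes UMP, had 80.7 and 123 CPM in the control libraries and 45.0 and 42.1 CPM in the TRC libraries. The TRC libraries were close together and the groups did not overlap. The mean fell to 42.7% of the control level, a log2 fold change of −1.23 (SE 0.26, edgeR exact test FDR = 5.53e-05). The antisense gene *Gm15829* overlaps *Umps* and had 0 counts in every library.

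*Dhodh* (ENSMUSG00000031730, chromosome 8 from 109591343 to 109608673, minus strand), whose enzyme acts between those of *Cad* and *Umps* and hands its electrons to the respiratory chain, did not pass the test. It had 21.5 and 19.3 CPM in the control libraries and 14.7 and 16.8 CPM in the TRC libraries. The groups did not overlap, but the log2 fold change of −0.37 (SE 0.26, edgeR exact test FDR = 0.457) was small beside those of its neighbours in the route. The 95% interval from DESeq2 ran from −0.87 to 0.13, so a decrease of this size was not resolved from none with 2 libraries per group. That interval overlapped the one of *Umps*, from −1.74 to −0.71, but not the one of *Cad*, from −2.02 to −0.90. No difference between these genes was tested.

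*Ctps* (ENSMUSG00000028633, chromosome 4 from 120539868 to 120570276, minus strand), which encodes the CTP synthase that predominates in proliferating cells, had 91.3 and 108 CPM in the control libraries and 47.0 and 46.1 CPM in the TRC libraries. Replicates were close in both groups and the groups did not overlap. The mean fell to 46.7% of the control level, a log2 fold change of −1.10 (SE 0.21, edgeR exact test FDR = 4.45e-05), with the smallest SE among the 10 genes. The processed pseudogenes *Gm16465*, 92.3% identical to *Ctps* over 1778 bases, and *Gm18699* can take away reads that are not unique, and *Gm16465* was listed at 0 counts in every library.

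*Uck2* (ENSMUSG00000026558, chromosome 1 from 167222883 to 167285320, minus strand), the kinase that salvages uridine and cytidine, had 98.0 and 116 CPM in the control libraries and 79.3 and 102 CPM in the TRC libraries. TRC replicate 3 lay between the control libraries. The log2 fold change was −0.24 (SE 0.23, edgeR exact test FDR = 0.552), with a 95% interval from −0.69 to 0.22 in DESeq2, whose lower end is above the values of *Cad*, *Umps* and *Ctps*.

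Of the 2 subunits of ribonucleotide reductase, only *Rrm2* was called in the exact test. *Rrm2* (ENSMUSG00000020649, chromosome 12 from 24708241 to 24714146, plus strand), the small subunit, had 317 and 519 CPM in the control libraries and 253 and 209 CPM in the TRC libraries, without overlap. It fell to 55.3% of the control level, a log2 fold change of −0.85 (SE 0.27, edgeR exact test FDR = 0.0169). *Rrm1* (ENSMUSG00000030978, chromosome 7 from 102441695 to 102469771, plus strand), the large subunit, had 311 and 553 CPM in the control libraries and 398 and 305 CPM in the TRC libraries. The groups overlapped, since TRC replicate 1 was above control replicate 1. Its log2 fold change was −0.30 (SE 0.30, edgeR exact test FDR = 0.546), with a 95% interval in DESeq2 from −0.88 to 0.28. The interval of *Rrm2* ran from −1.39 to −0.32 and overlapped that of *Rrm1*.

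The call of *Rrm2* rested on single libraries. Its FDR was 0.397 without control replicate 3, 0.0745 without TRC replicate 1 and 0.223 without TRC replicate 3, with log2 fold changes of −0.45, −1.01 and −0.73, and 0.0759 in edgeR's quasi-likelihood test. Without control replicate 3 the log2 fold change of *Rrm1* was 0.18, with an FDR of 0.856. Of 4 processed pseudogenes with at least 90% identity to *Rrm2* over at least 150 bases, *Gm48445* matches it at 98.4% over 193 bases, so reads there may have been dropped as not unique.

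*Dctpp1* (ENSMUSG00000042462, chromosome 7 from 127256959 to 127260709, minus strand), the dCTP pyrophosphatase, had 25.2 and 33.7 CPM in the control libraries and 16.3 and 16.7 CPM in the TRC libraries. Both TRC libraries lay below both control libraries and were nearly equal. It fell to 56.1% of the control level, a log2 fold change of −0.83 (SE 0.27, edgeR exact test FDR = 0.0330). The FDR was 0.327 without control replicate 3, 0.224 without TRC replicate 1, 0.197 without TRC replicate 3 and 0.0616 in the quasi-likelihood test, while the log2 fold change stayed between −1.03 and −0.61 with 1 library omitted.

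*Dut* (ENSMUSG00000027203, chromosome 2 from 125247190 to 125258608, plus strand), the dUTPase, had 123 and 174 CPM in the control libraries and 84.5 and 109 CPM in the TRC libraries. The groups did not overlap, yet the log2 fold change of −0.62 (SE 0.26) had an FDR of 0.0778 in edgeR's exact test. *Tk1* (ENSMUSG00000025574, chromosome 11 from 117815526 to 117826092, minus strand), the cytosolic thymidine kinase, had 122 and 193 CPM in the control libraries and 104 and 107 CPM in the TRC libraries, also without overlap. Its log2 fold change was −0.58 (SE 0.26) with an FDR of 0.116 in edgeR's exact test. The difference between the control libraries of *Tk1* was larger than the distance from control replicate 1 to either TRC library. Without control replicate 1 both genes were called, with FDR values of 0.0171 for *Dut* and 0.00964 for *Tk1*, and with library size as the only scaling *Dut* had an FDR of 0.0473. The processed pseudogene *Gm6091*, 99.4% identical to *Tk1* over 165 bases, was given 455 and 600 counts in the control libraries and 339 and 358 in the TRC libraries, so part of the reads of *Tk1* may be assigned to it. *Afmid*, which overlaps *Tk1* on the opposite strand, had 125 to 235 counts, and the strand setting of the counting is not given in the sources used here.

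Levels of different genes were compared as CPM per kb of the principal transcript. In control cells the order by mean was *Rrm2* at 191, *Tk1* at 109, *Rrm1* at 108, *Dut* at 76.2, *Dctpp1* at 43.5, *Ctps* at 36.9, *Cad* at 33.8, *Umps* at 29.2, *Uck2* at 22.6 CPM per kb, followed by *Dhodh* with 10.5 and 9.48 CPM per kb in control replicates 1 and 3. By mean, the enzymes of deoxynucleotide synthesis and pool control thus stood above those of the route to CTP, though the ranges of *Dctpp1* and *Ctps* overlapped. Within this order the ranges of the 2 control libraries overlapped for all neighbours except *Rrm2* and *Tk1*, *Dut* and *Dctpp1*, and *Uck2* and *Dhodh*. In TRCs *Rrm2* at 105 and *Rrm1* at 88.0 CPM per kb stood at the top with overlapping ranges. By mean, *Uck2*, at 19.2 CPM per kb, moved from rank 9 to rank 6, and *Cad*, at 12.3 CPM per kb, from rank 7 to rank 9. In TRCs the ranges of *Uck2* and *Ctps* overlapped, as did those of *Umps* and *Cad*, so these ranks did not hold in each TRC library. With the union of all annotated exons as length, added after seeing the data, *Rrm1* ranked 4 and *Tk1* ranked 5 in control cells. The order among the upper genes thus depends on the transcript model. By union length *Tk1*, at 30.3 CPM per kb in control cells, was nearly level with *Ctps*, at 30.1.

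Control replicate 3 was above control replicate 1 for 9 of the 10 enzymes, with a median log2 ratio of replicate 1 to replicate 3 of −0.55, and the exception was *Dhodh*. The TRC libraries had a median ratio of −0.0039, with 5 genes higher in each. A list of 31 genes of DNA replication and licensing, also chosen with earlier results known, moved in the same libraries. Its summed level was 3898 CPM in control replicate 1 and 5640 CPM in control replicate 3, and 2718 and 2724 CPM in TRC replicates 1 and 3. All 31 genes were higher in control replicate 3 than in control replicate 1. The share of all genes tested that was higher in control replicate 3 was not computed. The summed level of 8 proliferation markers was 2090 and 2554 CPM in the control libraries and 1753 and 1597 CPM in the TRC libraries. Their part in the decrease of the enzymes was not tested. When only libraries numbered 1 were compared, 9 of the 10 enzymes were lower in TRCs, with a median log2 ratio of −0.54, and between the libraries numbered 3 all 10 were lower, with a median of −0.92.

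Ratios between enzymes within a library do not depend on how libraries are scaled, and 6 pairs were compared. With 2 libraries against 2, a two-sided exact permutation test cannot give a p below 0.333, and each of the 6 pairs gave this value without overlap of the groups. The pairs are not separate results, since *Rrm2* and *Uck2* each enter more than 1 pair. The first gene of every pair is also among the enzymes with lower means in TRCs. Per kb, reads of *Rrm2* exceeded those of *Rrm1* by 1.86 and 1.71 times in control replicates 1 and 3, and by 1.16 and 1.25 times in TRC replicates 1 and 3. On the log2 scale the SDs were 0.082 in control cells and 0.079 in TRCs, and the difference between the group means was −0.57. The excess of *Rrm2* was smaller in both TRC libraries than in either control library. The size of each ratio, and so how near it is to 1, depends on the transcript lengths used, whereas the difference on the log2 scale does not.

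In 3 pairs an enzyme of dividing cells was set against its counterpart, and there the differences and the spread were larger. The ratio of *Rrm2* to *Rrm2b* was 21.9 and 52.0 in the control libraries and 16.6 and 13.3 in the TRC libraries, a difference of −1.18 on the log2 scale. The ratio of *Tk1* to *Tk2*, the mitochondrial thymidine kinase, was 12.9 and 33.3 in the control libraries and 8.53 and 10.4 in the TRC libraries, a difference of −1.14. These differences were −0.56 and −0.46 without control replicate 3 and −1.81 and −1.83 without control replicate 1. For *Ctps* against *Ctps2*, the other CTP synthase gene, the log2 ratio was 2.65 and 3.22 in the control libraries and 1.14 and 1.46 in the TRC libraries, a difference of −1.63 that lay between −1.92 and −1.35 with 1 library omitted. In that pair the distance between the groups was larger than that between the replicates of either.

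For the uridine-cytidine kinases the differences were smaller or rested on 1 library. The log2 ratio of *Uck2* to *Uck1* was −0.16 and −0.11 in the control libraries and −0.63 and −0.38 in the TRC libraries, a difference of −0.37 that was −0.24 without TRC replicate 1. The log2 ratio of *Uck2* to *Uckl1* was −0.16 and 0.98 in the control libraries and −0.26 and −0.25 in the TRC libraries. Without control replicate 3 that difference of −0.66 was −0.090.

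**Figure D2:**
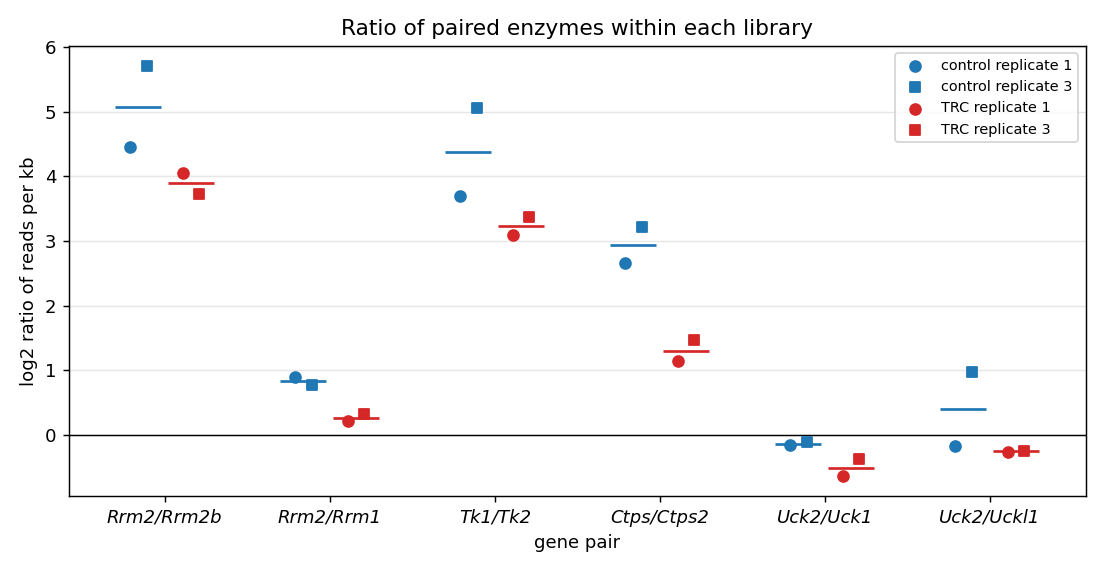
Log2 ratio of reads per kb between the 2 genes of each pair in each library (controls blue, TRCs red, replicate 1 circles, replicate 3 squares), with lines at the group means (n = 2) and a black line at equal levels. In every pair the TRC points lie below the control points, with the widest gap for *Ctps/Ctps2*, and control replicate 3 stands apart from control replicate 1 for *Rrm2/Rrm2b*, *Tk1/Tk2* and *Uck2/Uckl1*.

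The genes around these enzymes were taken from lists written for this pathway, and the plot of changes by role sets the nearest of them beside the 10 enzymes. Of 11 partners in the supply of dTMP and deoxynucleotides, 5 fell and none rose, at a median of −0.57 on the log2 scale. The exact test called 7.05% of all genes tested lower and 8.81% higher. *Shmt1*, which charges the folate needed for dTMP with a one-carbon unit, had 35.7 and 49.1 CPM in the control libraries and 20.7 and 15.6 CPM in the TRC libraries, a log2 fold change of −1.22 (SE 0.28, edgeR exact test FDR = 0.000407). *Tyms*, thymidylate synthase itself, had 65.8 and 109 CPM in the control libraries and 44.0 and 43.0 CPM in the TRC libraries, a log2 fold change of −1.01 (SE 0.28, edgeR exact test FDR = 0.00236). *Dctd*, named after its value was seen, deaminates dCMP to dUMP and had a log2 fold change of −1.01 (SE 0.24, edgeR exact test FDR = 0.00348), and *Dtymk*, which phosphorylates dTMP, one of −0.63 (SE 0.21, edgeR exact test FDR = 0.0361). With DUT, the enzymes of the steps from dCMP and dUTP to dTDP therefore all had lower mean transcript levels in TRCs, though *Dut* did not pass the test.

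Single libraries decided part of these calls. Without control replicate 3 the FDR was 0.157 for *Tyms*. Without TRC replicate 1 and without TRC replicate 3 *Tyms* had FDR values of 0.0619 and 0.0732. *Dtymk* was not called with any 1 library left out, with FDR values from 0.0510 without control replicate 1 to 0.252 without TRC replicate 1. *Dctd* had an FDR of 0.100 and *Shmt1* of 0.0516 without TRC replicate 3. Every one of these log2 fold changes remained negative with 1 library omitted.

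In the same list of 11 partners, 4 genes had values on the other side of 0, and none of them passed the test. Described here are 3 of them, which act in mitochondria or outside S phase. Mitochondrial genes as a whole did not share this direction, since some in the other lists had values below 0. *Rrm2b* had 30.1 and 20.7 CPM in the control libraries and 31.7 and 32.8 CPM in the TRC libraries, a log2 fold change of 0.34 (SE 0.27, edgeR exact test FDR = 0.443). *Tk2* had 15.7 and 9.69 CPM in the control libraries and 20.4 and 17.2 CPM in the TRC libraries, a log2 fold change of 0.56 (SE 0.32, edgeR exact test FDR = 0.293). For *Dguok*, the mitochondrial deoxyguanosine kinase, named after its value was seen, the log2 fold change was 0.64 (SE 0.29, edgeR exact test FDR = 0.175). In these 3 genes both TRC libraries were above both control libraries, as in 30.2% of all genes tested, and control replicate 3 was the lowest library of the 4. *Dck*, the cytosolic deoxycytidine kinase, had a log2 fold change of −0.15 (SE 0.30, edgeR exact test FDR = 0.781), and *Samhd1*, which hydrolyses deoxynucleotides, one of −0.57 (SE 0.29, edgeR exact test FDR = 0.144), with overlapping groups for both.

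Of 10 partners in the supply of UMP and CTP, 8 were tested and 1 fell, *Nme1*, a nucleoside diphosphate kinase, with 79.6 and 139 CPM in the control libraries and 54.4 and 74.0 CPM in the TRC libraries. Its log2 fold change was −0.77 (SE 0.31, edgeR exact test FDR = 0.0480), and the FDR was 0.624, 0.419 and 0.0789 without control replicate 3, TRC replicate 1 and TRC replicate 3. Of the 2 genes not tested, *Nme2* had between 3 and 32 counts and *Nme3* was listed at 0 in every library, and each overlaps another gene on its own strand. *Ctps2* had 799 and 509 counts in the control libraries and 1098 and 863 counts in the TRC libraries, a log2 fold change of 0.54 (SE 0.28, edgeR exact test FDR = 0.245). *Uck1* and *Uckl1* had log2 fold changes of 0.12 and 0.36, with FDR values of 0.781 and 0.475. The list had a median of −0.078, with 4 genes below 0 and 4 above. Its 1 call stands beside 7.05% of all genes tested called lower, so it says little about the list.

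**Figure D3:**
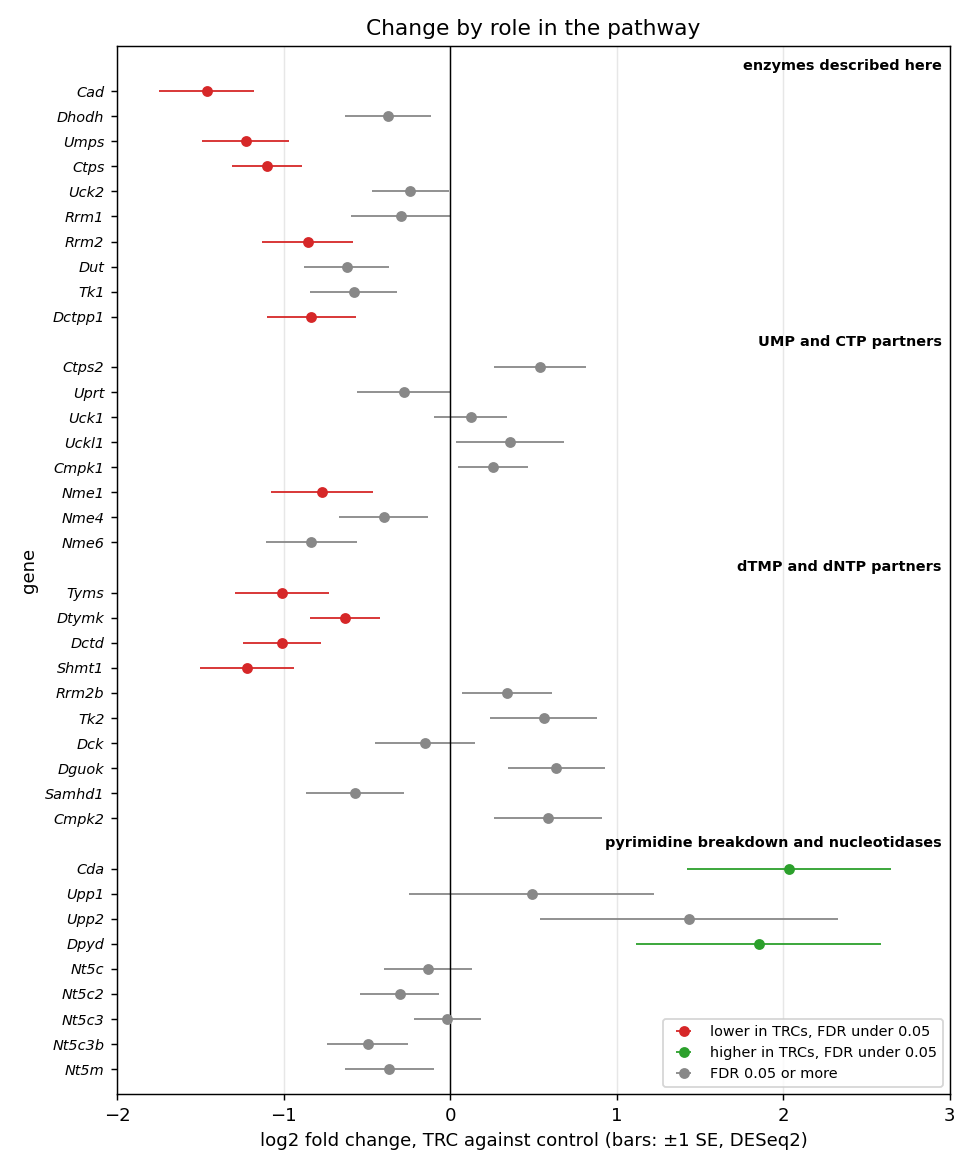
Log2 fold change of TRCs against control cells for the 10 enzymes and the genes shown of 3 lists around them, with bars of ±1 SE from DESeq2, in red or green where the FDR of the exact test was under 0.05. The called genes of synthesis are all to the left of 0, from −1.46 for *Cad* to −0.63 for *Dtymk*. The 2 called genes of breakdown, both at low levels, are to the right, while 5 of the 9 tested genes of that list had values below 0.

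Of 13 genes for pyrimidine breakdown and nucleotidases, 9 were tested, 2 rose and none fell, with 5 of the 9 log2 fold changes below 0 and a median of −0.016. Both that rose had low levels, and 8.81% of all genes tested were called higher. *Cda*, cytidine deaminase, had 26 and 37 counts in the control libraries and 113 and 164 counts in the TRC libraries, which is 0.585 and 1.05 CPM against 2.72 and 3.94 CPM. Its log2 fold change was 2.03 (SE 0.61, edgeR exact test FDR = 0.00188), with an FDR of 0.0524 without control replicate 1 and 0.0907 without TRC replicate 3. *Dpyd*, chosen after its value was seen, is the dehydrogenase that starts uracil and thymine degradation. It was under 1 CPM in both control libraries, so it passed the filter on low counts only through the TRC libraries. In DESeq2's Wald test *Dpyd* had an FDR of 0.0598. It had 37 and 12 counts in the control libraries and 81 and 98 counts in the TRC libraries, a log2 fold change of 1.85 (SE 0.74, edgeR exact test FDR = 0.00987), and its FDR was 0.194, 0.0667 and 0.138 without control replicate 3, TRC replicate 1 and TRC replicate 3. *Dpys* and *Upb1*, which encode the next enzymes of that degradation, had at most 2 counts in any library.

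Of the 8 nucleoside and nucleotide carriers, 6 were tested and 1 rose, where 8.81% of all genes tested were called higher. This was *Slc25a36*, a carrier of pyrimidine nucleotides in the mitochondrial inner membrane, with 70.8 and 56.8 CPM in the control libraries and 117 and 147 CPM in the TRC libraries. The log2 fold change was 1.05 (SE 0.23, edgeR exact test FDR = 0.000338), and the gene was still called when any 1 library was omitted, with FDR values up to 0.0476. Its groups were separated by more than the spread within either.

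Among 10 genes that supply glutamine, aspartate and PRPP, 2 fell and 1 rose. Over all genes tested 7.05% were called lower and 8.81% higher, so counts this small say little about a list. *Prpsap1*, a subunit associated with PRPP synthetase, had a log2 fold change of −0.93 (SE 0.27, edgeR exact test FDR = 0.00566). *Gls2*, which encodes a glutaminase, rose from 39 counts in both control libraries to 99 and 165 counts in the TRC libraries, a log2 fold change of 1.68 (SE 0.59, edgeR exact test FDR = 0.0107). *Gls2* had FDR values of 0.0892, 0.0558 and 0.243 without control replicate 1, control replicate 3 and TRC replicate 3, and *Prpsap1* of 0.214, 0.129 and 0.0703 without control replicate 3, TRC replicate 1 and TRC replicate 3. Of 6 genes of nucleotide pool cleaning, 2 rose and none fell. *Nudt18*, a hydrolase of oxidized nucleotides, had 666 and 210 counts in the control libraries and 1126 and 1016 counts in the TRC libraries, a mean level of 246% of that in control cells (edgeR exact test FDR = 0.0153), with FDR values of 0.186, 0.170 and 0.0968 without control replicate 3, TRC replicate 1 and TRC replicate 3. *Nudt16*, named after its value was seen, had a log2 fold change of 1.23 (SE 0.33, edgeR exact test FDR = 0.0140) and FDR values of 0.180, 0.128 and 0.155 without the same libraries.

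The 2 gene lists most like these enzymes moved in the same direction, with counts called that stand beside 7.05% of all genes tested called lower. Of 10 genes of de novo purine synthesis, 6 fell and none rose, the median being −0.82, and *Atic*, which encodes the enzyme of the last steps to IMP, had the largest fall with −1.12 (SE 0.24, edgeR exact test FDR = 0.000277). Of the 31 genes of DNA replication and licensing, 22 fell and none rose, with a median of −0.90, and *Cdt1*, a licensing factor, had the largest fall with −1.33 (SE 0.22, edgeR exact test FDR = 1.15e-06). Fewer genes of both lists were called without control replicate 3, TRC replicate 1 or TRC replicate 3. Over all genes fewer were called lower in these fits as well, which have 1 library in a group. In the quasi-likelihood test 6 genes of the purine list and 13 of the replication list were called lower, beside 3 of the 10 enzymes and 4.24% of all genes. The median of the 10 pyrimidine and deoxynucleotide enzymes, −0.73, lay beside those of both lists, and no difference between the lists was tested. Within the 10, the 4 genes of the route to UMP and CTP had a median of −1.16 and the 5 genes of deoxynucleotide synthesis and pool control one of −0.62. *Uck2*, at −0.24, is in neither group, and no difference between the groups was tested. The 11 partners for dTMP and deoxynucleotides outside the 10 reached −1.22, with a median of −0.57, so the contrast depends on which genes are included.

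**Figure D4:**
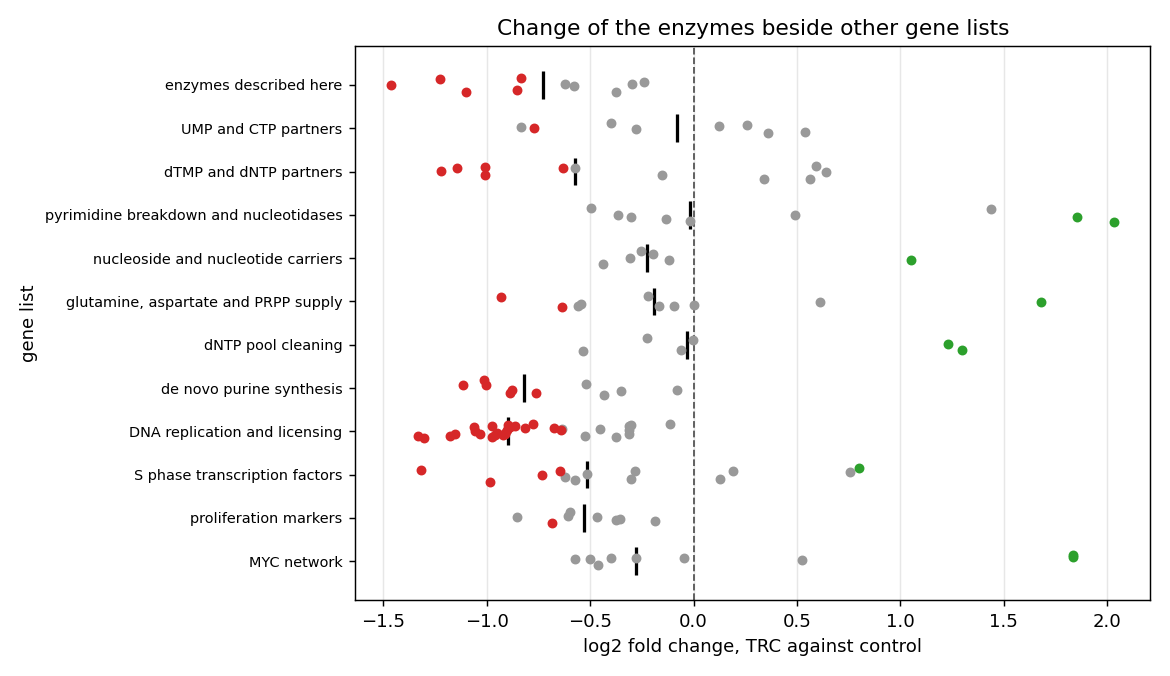
Log2 fold change of TRCs against control cells for each tested gene of 12 lists, in red where lower and green where higher at an FDR under 0.05 and grey otherwise, with a black bar at the median of each list and a dashed line at the median of all genes tested. The medians of the 10 enzymes, of purine synthesis and of DNA replication, at −0.73, −0.82 and −0.90, are the 3 lowest.

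Of 13 S phase transcription factors and RB family genes, 4 fell and 1 rose, where 7.05% of all genes tested were called lower and 8.81% higher. *E2f7*, an E2F repressor, had a log2 fold change of −1.32 (SE 0.31, edgeR exact test FDR = 0.00115), and *Rb1* one of 0.80 (SE 0.29, edgeR exact test FDR = 0.0290). *E2f1* had 63.5 and 84.2 CPM in the control libraries and 43.6 and 59.8 CPM in the TRC libraries, a log2 fold change of −0.51 (SE 0.26, edgeR exact test FDR = 0.155). The other 3 that fell, *E2f6*, *E2f8* and *Tfdp1*, named after their values were seen, had log2 fold changes of −0.73, −0.98 and −0.64, and none of the 3 was called without control replicate 3, TRC replicate 1 or TRC replicate 3, where their FDR values ran from 0.0669 to 0.316. Without control replicate 3 the FDR was 0.103 for *E2f7* and 0.372 for *Rb1*, and without TRC replicate 3 it was 0.0518 and 0.146. *Rb1* was also not called without TRC replicate 1, at 0.203. All 8 proliferation markers had a log2 fold change below 0, against 49.7% of all genes tested, with a median of −0.53. Of the 8, 1 was called, *Birc5*, with a log2 fold change of −0.69 (SE 0.24, edgeR exact test FDR = 0.0357). With 1 library omitted its log2 fold change lay between −0.87 and −0.47.

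In the MYC network, *Myc* itself had 78.9 and 87.0 CPM in the control libraries and 73.7 and 46.7 CPM in the TRC libraries. Its groups did not overlap, but TRC replicate 1 was near the controls, and the log2 fold change of −0.46 (SE 0.27) had an FDR of 0.227 in edgeR's exact test. *Mycn* had 3 to 5 counts per library. Of the 9 genes tested, 2 rose, *Mxi1* and *Mxd4*, whose proteins compete with MYC for the partner MAX. Over all genes tested 8.81% were called higher. *Mxi1* had 48.7 and 43.4 CPM in the control libraries and 129 and 200 CPM in the TRC libraries, a log2 fold change of 1.83 (SE 0.26, edgeR exact test FDR = 6.81e-10). *Mxd4*, chosen after its value was seen, had 56.4 and 43.4 CPM in the control libraries and 180 and 175 CPM in the TRC libraries, a log2 fold change of 1.83 (SE 0.22, edgeR exact test FDR = 7.49e-12). Both were still called when any 1 library was omitted and in the quasi-likelihood test. Of the other genes named outside the 10 enzymes as called in the exact test, *Nme1*, *Dtymk*, *Dpyd*, *Gls2*, *Prpsap1*, *Nudt18*, *Rb1*, *E2f6*, *Tfdp1* and *Birc5* were, like *Dct*, not called in the quasi-likelihood test, with FDR values from 0.0509 to 0.120.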

How the data were processed

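RNA was sequenced from 2 parental control and 2 TRC libraries, numbered 1 and 3 in both groups. The deposited files hold unnormalized read counts for each Ensembl gene, which the authors made with Trimmomatic 0.35, TopHat2 2.1.0 on GRCm38 and htseq-count; overlap mode and strand setting are not given in the sources used here. The totals htseq-count gives for alignments on no gene or ambiguous (3.77% to 5.12%) and not unique (15.2% to 25.2%) were removed before any other step.

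Following the study's methods, genes under 1 CPM in at least 3 libraries were removed, counts were TMM-normalized, and the exact test of edgeR 4.0.16 (R 4.3.3) was run on tagwise dispersions with Benjamini-Hochberg adjustment over 11483 genes. SEs and 95% intervals came from DESeq2 1.42.0. The exact test, the quasi-likelihood test with and without a replicate block and the DESeq2 Wald test were first tried on simulated data. Symbols and positions came from GENCODE M21, promoters from RefSeq (GRCm38.p6), where 9 of the 10 genes were matched and *Dhodh* was not. Near-identical copies were found with blastn (at least 90% identity over 150 bases).

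The enzymes and gene lists were chosen with earlier results of these data known. Outside the 10 enzymes the genes named are the pair partners, *Tyms*, *Dtymk*, *Dck*, *Samhd1*, *Myc*, *Mycn*, *E2f1* and each list's called gene with the largest rise and fall, with exceptions stated in the text and, for counts at or near 0, *Nme2*, *Nme3*, *Dpys* and *Upb1*, named after their values were seen; 2 genes counted in the lists are not reported here by name or value. The replicate numbers were checked for pairing. The alternatives were other filters, scalings, dispersions and tests, a replicate block and each library left out.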

Additional observations from a re-analysis of the deposited data

How the results depend on the processing

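Across the 12 alternatives *Cad*, *Umps* and *Ctps* were called lower in each, *Rrm2* in 7, *Dctpp1* in 6, *Dut* in 2 and *Tk1* in 1, and *Dhodh*, *Uck2* and *Rrm1* in none, and the sign of a log2 fold change turned once, for *Rrm1* without control replicate 3 (range with each library left out −0.65 to 0.18). The median of the 10 enzymes lay between −0.95 and −0.45. edgeR's quasi-likelihood test called 3 of the enzymes without the replicate block and 3 with it (*Cad* FDR = 0.0409, *Umps* 0.0373, *Ctps* 0.0290 with the block), and over all genes 1054 (487 lower, 567 higher) without and 785 (308 lower or 2.68%, 477 higher or 4.15%) with it, against 1822 (810 lower, 1012 higher) in the exact test. The labels do not say that a number marks a shared culture, and how far libraries with one number lay from their group means correlated across genes at r = 0.027, so pairing by number has no support beyond the label. With each library left out in turn, 3 to 7 enzymes were called, and over all genes 773 to 1932 (269 to 854 lower, 500 to 1078 higher); such a fit has 1 library in a group, which is assumed to vary like the others, and fewer samples. None of the enzymes was called higher in any alternative. The difference in log2 ratio between groups kept its sign in all 6 pairs with each library left out, from −1.81 to −0.56 for *Rrm2/Rrm2b*, −0.62 to −0.51 for *Rrm2/Rrm1*, −1.83 to −0.46 for *Tk1/Tk2*, −1.92 to −1.35 for *Ctps/Ctps2*, −0.50 to −0.24 for *Uck2/Uck1* and −1.24 to −0.090 for *Uck2/Uckl1*. Each of the 10 enzymes had at least 611 counts in every library; how the calls depend on depth or on the number of libraries was not tested beyond leaving libraries out.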
